A study of Rattus norvegicus with 16 samples.

Results

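Glutamate receptors, glutamate transporters and glutamine synthetase were followed through 3 regions of the newborn rat cochlea. They were taken as every probe set of a rat neurobiology array whose gene symbol starts with Gria, Grik, Grin, Grid, Grm, Slc1a or Slc17a, or is Glul. The rule found 58 probe sets of 29 genes among the 1263 probe sets of the array that are not controls, which carry 720 named genes. The regions were the organ of Corti with the sensory hair cells, the modiolus with the spiral ganglion, and the stria vascularis, the secretory epithelium of the lateral wall. Explants exposed to hypoxia spent 24 h in culture, of which 5 h, beginning 3 h after the explants were plated, passed at 10 to 20 mmHg oxygen in the medium and the last 16 h again in normoxia. Normoxic explants spent the same 24 h in the same medium, which held fetal calf serum, insulin, transferrin, putrescine, ciprofloxacin and L-glutamine, and were the control for hypoxia. Native tissue was lysed straight after dissection and was the control for culture. Each array held RNA pooled from 12 cochleae, which for native tissue came from 6 animals. There were 2 arrays of each cultured group and of native organ of Corti, but 1 each of native modiolus and native stria vascularis, 16 in all. One label field calls the native modiolus and stria vascularis fresh, while their protocol field speaks of collection after cultivation, and they are taken here as native.

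Glutamate is the transmitter that inner hair cells release onto the fibres of the spiral ganglion. Gria genes encode the subunits of AMPA receptors, which carry fast transmission there, Grik genes those of kainate receptors, and Grin genes those of NMDA receptors, which admit calcium. Grm genes encode metabotropic receptors that act through G proteins. The Slc1a genes encode sodium-driven transporters that clear glutamate from around the synapse, and glutamine synthetase, encoded by Glul, turns glutamate and ammonia into glutamine. Glutamate that is not cleared overstimulates its receptors, and this excitotoxic injury is known from the cochlea deprived of oxygen.

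The 58 probe sets comprised 10 for the 4 Gria genes, 6 for the 5 Grik genes, 1 for Grid1, 14 for the 6 genes Grin1, Grin2a, Grin2b, Grin2c, Grin2d and Grin3a, 9 for the 7 genes Grm2 to Grm8, 12 for Slc1a1, Slc1a2, Slc1a3 and Slc1a6, and 4 for Glul. A further 2 belong to Grina, which met the rule by its letters only and is not a subunit of the NMDA receptor. No probe set carried a Slc17a symbol, so the vesicular glutamate transporters are not described. Signals are intensities on the linear scale of the deposited table and serve to compare arrays, not genes, since probe sets differ in brightness for equal RNA. A group is called not above background where none of its arrays exceeded the 95th percentile of its own 23 controls for non-rat sequences. By this measure 21 probe sets of 14 genes were above background in all 9 groups, 30 in some groups and 7 in none. The 7 were 1 of the 3 probe sets of Gria1, 1 of the 2 of Gria2, 1 of the 2 of Grik4, 1 of the 4 of Grin1, the single one of Grik1 and both of Slc1a6.

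The share of member probe sets above background was highest in the hypoxic organ of Corti, at 40 of 58 (69.0%), and lowest in normoxic modiolus and native stria vascularis, at 28 of 58 each (48.3%). Over the whole array the share was 72.1% of 1263 in hypoxic organ of Corti, 63.2% in normoxic modiolus and 56.0% in native stria vascularis. The brightest probe sets of Glul, Grina, Slc1a1, Slc1a3 and all 6 Grin genes were above background in every group, but of the AMPA receptor genes this held for Gria1 alone. Of the 7 Grm genes it held for Grm4 alone, and of the 5 Grik genes for Grik3 and Grik5.

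**Figure D1:**
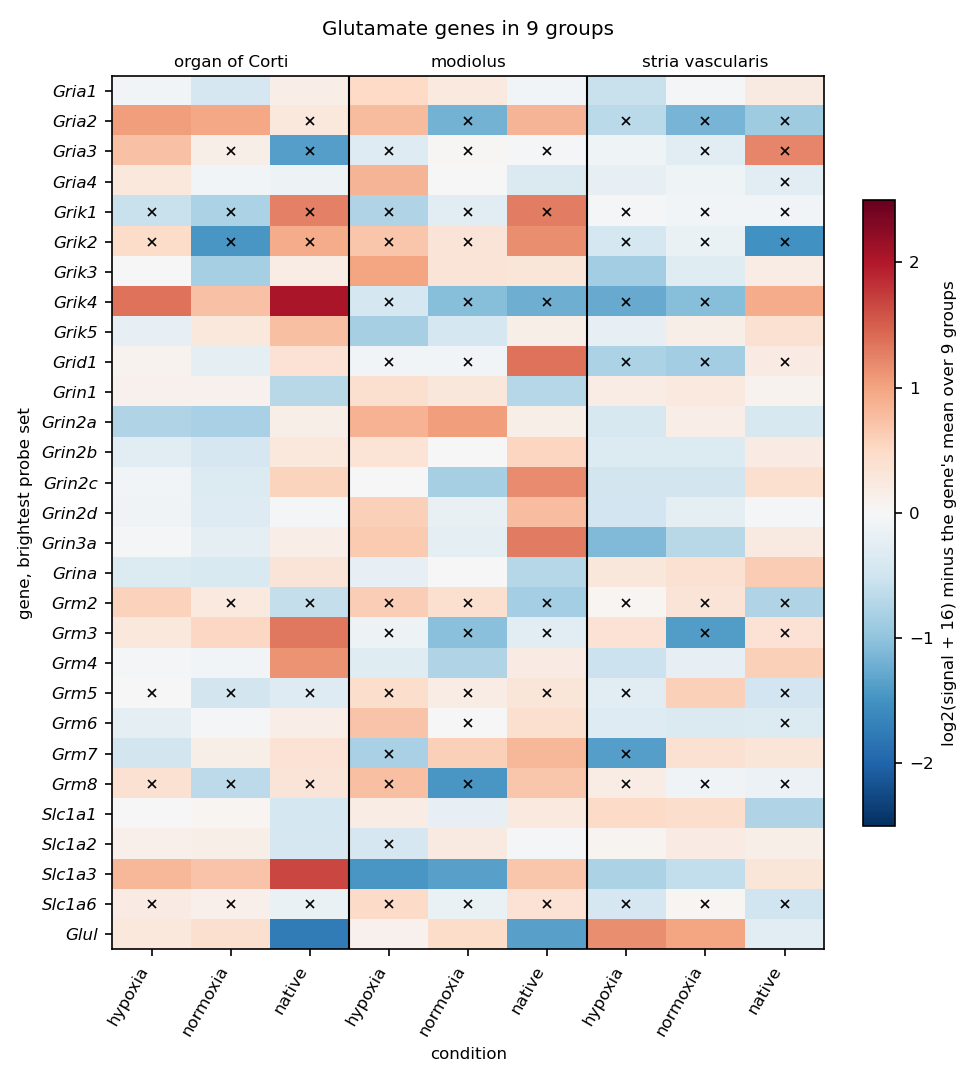
Colour gives log2(signal + 16) of the brightest probe set of each of the 29 genes in 9 groups (mean of the arrays of a group), minus the gene's own mean over the groups. Crosses mark groups not above background. Glul is low in native organ of Corti and modiolus, Slc1a3 is high in the organ of Corti, and many receptor genes carry crosses in several groups.

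Facts of the whole set of arrays bear on what follows. Session 1 of scanning held all native arrays, session 2 the cultures numbered repeat 1 and session 3 those numbered repeat 2. Culture and scan session therefore cannot be told apart, while hypoxia and normoxia can be compared within a session. Sessions 1 and 3 each ran over 2 scan days, and native stria vascularis was scanned on another day than the other native arrays. Hypoxic organ of Corti and both modiolus arrays of session 3 were scanned on its first day. Its normoxic organ of Corti and both stria vascularis arrays followed on the second. Within session 3 the hypoxia difference of organ of Corti and the region differences therefore also cross scan days, at least in part. For Gapdh, 3′ signal divided by 5′ signal, which grows as RNA breaks down, was 1.07 to 1.39 on cultured arrays and 3.39 to 4.76 on native ones. The same ratio for beta-actin overlapped, at 1.73 to 2.78 on cultured arrays and 1.67 to 2.41 on native ones. The summed signal of 9 measured neuron markers of 15 listed was 45389 to 76585 on normoxic arrays of organ of Corti and modiolus, against 117619.8 to 128692 on native ones, and 22518 to 23159 on normoxic against 15588 on native stria vascularis. That of 6 measured markers of Schwann cells, satellite glia and myelin of 10 listed was 15969 to 50089.7 on normoxic and 83858 to 108895 on native arrays. In the neuron sum of stria vascularis, Eno2 averaged 15177 in normoxic against 7076 in native tissue, and Sncg 1653 against 175. The median log2 difference of the 9 neuron markers there was -0.585, so the sum does not stand for most of them. Neither list had a marker at 0, and the part of cell loss, RNA integrity and scan session in the culture differences below was not tested. In bulk tissue fewer cells of a type and less RNA per cell cannot be told apart. Few markers on the array bear on the region labels. Of 4 measured stria markers of 10 listed, Kcne1, Kcnq1 and Atp1b2 were highest in native stria vascularis among native tissues, with 52128 for Kcne1, a channel subunit, against 1202.5 in native organ of Corti. The summed signal of the 4 was 19033.5 and 20851 on normoxic stria vascularis arrays, against 79849 on the native one. Kcnj10, the potassium channel of intermediate cells, averaged 613 in native stria vascularis against 796 in native organ of Corti and 934 in native modiolus. Chrna9, the acetylcholine receptor subunit of hair cells and the only measured gene of 13 on that list, averaged 859 in native organ of Corti against 398 in native stria vascularis and 209 in native modiolus. In hypoxia it averaged 770.4 in organ of Corti against 701 in modiolus.

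Normoxic explants were first set against native tissue, to compare the glutamate genes with and without a day in culture. Of the 58 probe sets 13 passed when the within-region differences were averaged over the regions, 7 higher and 6 lower in culture, against 32% of all 1263 probe sets (13.3% higher and 18.7% lower). Passing means an adjusted p under 0.05 in limma, adjusted over the 1263. The probe sets that rose belonged to Glul, Slc1a1 and Slc1a3, the ones that fell to Slc1a3, Grin1, Grin2b, Grin2c, Grin2d and Grm4, and no Gria, Grik, Grid1 or Grina probe set passed. Counted by its brightest probe set, 1 gene of 29 rose and 4 fell. The median log2 difference was -0.32 over the 58 probe sets and -0.14 over all 1263. Within organ of Corti 6 of 58 passed, 4 higher and 2 lower, against 17.3% of all probe sets (8.47% higher and 8.79% lower). Within modiolus 6 passed, 4 higher and 2 lower, against 20.9% (10.1% and 10.8%), and within stria vascularis 6, 5 higher and 1 lower, against 13.7% (7.36% and 6.33%).

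Glutamine synthetase showed the clearest rise. Its brightest probe set (rc_AI232783_s_at) read 49239.9 and 44934 in normoxic organ of Corti, against 10109 and 11179.5 in native organ of Corti. It read 44316 and 54390.0 in normoxic modiolus against 13834 in native modiolus, and 68916 and 72129.7 in normoxic stria vascularis against 29448 in native stria vascularis. All normoxic arrays lay above every native array, and native stria vascularis stood above the other native tissues. The log2 difference averaged over regions was 1.74 ± 0.14 (SE), a 3.35-fold rise (limma, adjusted p = 9.6e-07). Probe set rc_AA852004_s_at, which read 11131 and 13161 in normoxic and 1633 and 1807 in native organ of Corti, rose by 2.26 ± 0.12 on the log2 scale (adjusted p = 2.6e-08). Probe set rc_AI012265_i_at rose by 1.78 ± 0.15 (adjusted p = 1.6e-06) with native signals of 1014 and 694 in organ of Corti, 1288 in modiolus and 606 in stria vascularis. Probe set M91652complete_seq_g_at rose least, by 0.50 ± 0.12 (adjusted p = 0.0076), and read 39905 and 38337 in normoxic against 36544 in native stria vascularis. So all 4 probe sets of the enzyme passed in the same direction, and they differed in size.

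**Figure D2:**
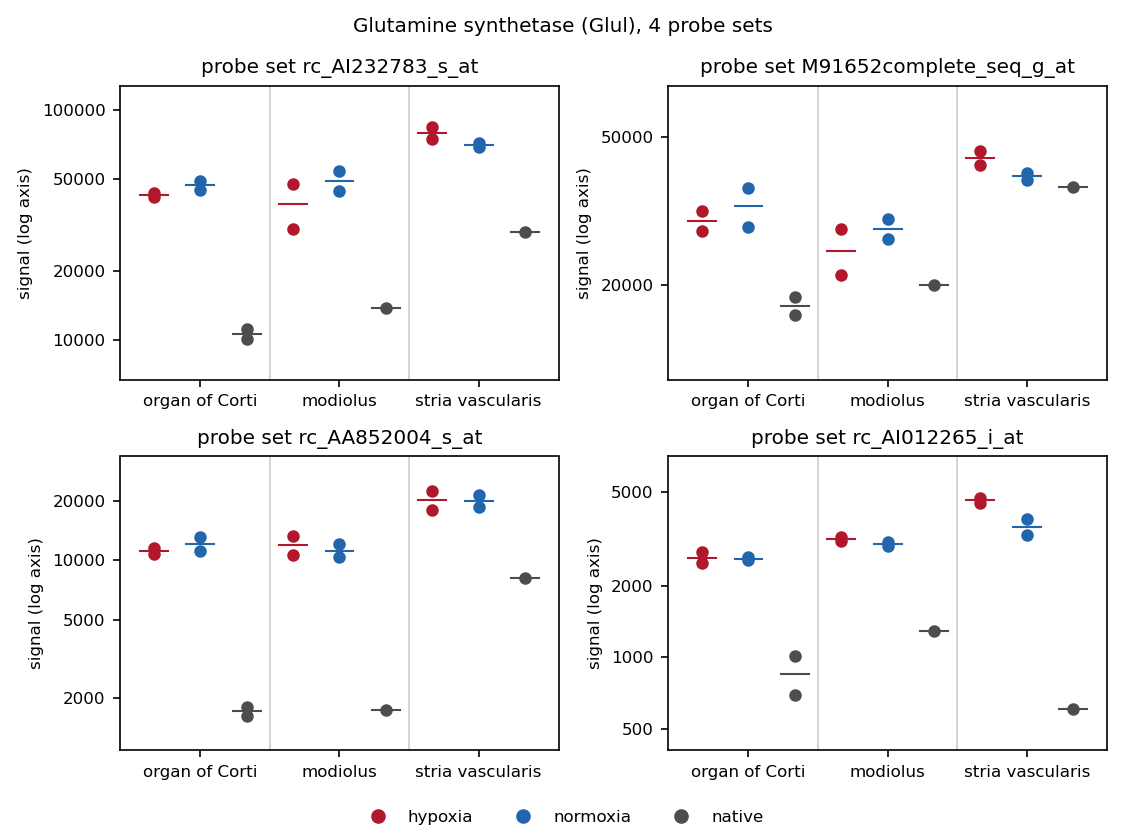
Signal of the 4 Glul probe sets by array, on a log axis, for hypoxia, normoxia and native tissue in 3 regions; points are arrays and bars are group means. In each panel the cultured arrays stand above native organ of Corti and native modiolus, and in the panel of M91652complete_seq_g_at the native stria vascularis, at 36544, lies close to its cultured arrays.

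The rise of glutamine synthetase was not the same size in all regions. Probe set rc_AA852004_s_at rose by 2.81 ± 0.18 in organ of Corti (adjusted p = 2.7e-07), by 2.67 ± 0.23 in modiolus (adjusted p = 4.0e-06) and by 1.30 ± 0.23 in stria vascularis (adjusted p = 0.0019). A moderated F test of the difference between regions passed for this probe set (adjusted p = 0.0229), the only 1 of 58, against 3.33% of all 1263. That call was lost without native organ of Corti replicate 1 (adjusted p = 0.0536), normoxic organ of Corti replicate 2 (0.0571) or normoxic stria vascularis replicate 1 (0.0775). The brightest probe set followed the same order of regions, with 2.14 ± 0.21 in organ of Corti, 1.83 ± 0.25 in modiolus and 1.26 ± 0.25 in stria vascularis, and so did M91652complete_seq_g_at, with 0.88 ± 0.18, 0.51 ± 0.23 and 0.10 ± 0.23. The remaining one, rc_AI012265_i_at, rose most in stria vascularis, by 2.52 ± 0.27, against 1.62 ± 0.22 in organ of Corti and 1.21 ± 0.27 in modiolus. M91652complete_seq_g_at passed in organ of Corti alone (adjusted p = 0.0051), and lost that call without native organ of Corti replicate 1 (0.0567) or normoxic organ of Corti replicate 2 (0.0673).

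Slc1a3, the glial glutamate transporter also called GLAST, gave opposite results on 2 probe sets. The brightest, S59158_at, read 12805 and 11528 in normoxic organ of Corti, against 23021 and 24634 in native organ of Corti. It read 2932 and 2894 in normoxic modiolus against 12058 in native modiolus, and 4344 and 5419 in normoxic stria vascularis against 9227 in native stria vascularis. Within each region the normoxic arrays lay below the native ones without overlap, and the averaged log2 difference was -1.31 ± 0.15 (SE, 2.48-fold lower, adjusted p = 2.1e-05). The fall was -2.04 in modiolus (adjusted p = 0.0002), -0.97 in organ of Corti (0.0092) and -0.92 in stria vascularis (0.0429). The call in organ of Corti was lost without its native replicate 2 (adjusted p = 0.0649) or normoxic replicate 2 (0.0719), and that in stria vascularis without any 1 of 7 arrays of 14 (adjusted p from 0.0554 to 0.190).

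Probe set S75687_s_at of Slc1a3 read 2091 and 2901 in normoxic organ of Corti against 1649 and 1914 in native, and 1149 and 1215 in normoxic modiolus against 493 in native. It read 1176 and 1087 in normoxic stria vascularis against 1019.6 in native. Here the normoxic arrays lay above the native ones in every region, and the averaged difference was 0.62 ± 0.19 (adjusted p = 0.0228), of which modiolus gave 1.23 ± 0.34 (adjusted p = 0.0226). The averaged call was lost without native organ of Corti replicate 1 (0.0582), normoxic organ of Corti replicate 2 (0.0640) or normoxic stria vascularis replicate 1 (0.0505), and the call in modiolus without its normoxic replicate 2 (0.0680). The other 2 probe sets of Slc1a3 did not pass in culture, with averaged differences of -0.36 ± 0.32 for X63744_g_at and -0.50 ± 0.38 for X63744_at. The direction of Slc1a3 in culture therefore depends on the probe set, and no direction is given for the gene.

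Slc1a1, the neuronal and epithelial transporter called EAAC1 in rodents, was higher in culture on 2 of its 3 probe sets. AF038571_s_at read 867 and 986 in normoxic organ of Corti against 582 and 593 in native, and 812 and 1078 in normoxic modiolus against 796 in native. In stria vascularis it read 1639.6 and 1385 in normoxia against 302 in native tissue, where it was not above background. The averaged difference was 1.04 ± 0.26 (adjusted p = 0.0076), at least 1.77-fold with the dim array raised to its background, and the groups overlapped nowhere. Stria vascularis alone gave 2.26 ± 0.47 (adjusted p = 0.0067, at least 3.04-fold). That call was lost when only the compared groups were in the fit. L35558_s_at rose by 1.10 ± 0.27 (adjusted p = 0.007, at least 1.77-fold), with 862 and 845 in normoxic stria vascularis against 266 in native, not above background. Its call in stria vascularis alone (1.62, adjusted p = 0.0473) was lost without any 1 of 11 arrays of 14 (adjusted p from 0.0512 to 0.147).

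The brightest probe set of Slc1a1, D63772_at, did not pass (0.40 ± 0.23, adjusted p = 0.222). It read 1607 and 1288 in normoxic and 1296 and 822 in native organ of Corti, 1027 and 1416 in normoxic and 1658 in native modiolus, and 2123 and 1686 in normoxic and 827 in native stria vascularis. Groups overlapped in organ of Corti, and the normoxic arrays stood lower in modiolus and higher in stria vascularis. Slc1a2, the main transporter of astrocytes in the brain, read 754 and 478 in normoxic and 496 and 324 in native organ of Corti, 666 and 605 in normoxic and 520.0 in native modiolus, and 653 and 604 in normoxic and 599 in native stria vascularis. Its averaged difference did not pass (0.30 ± 0.28, adjusted p = 0.455). Slc1a6, a transporter of Purkinje cells, was not above background in any group on either probe set.

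**Figure D3:**
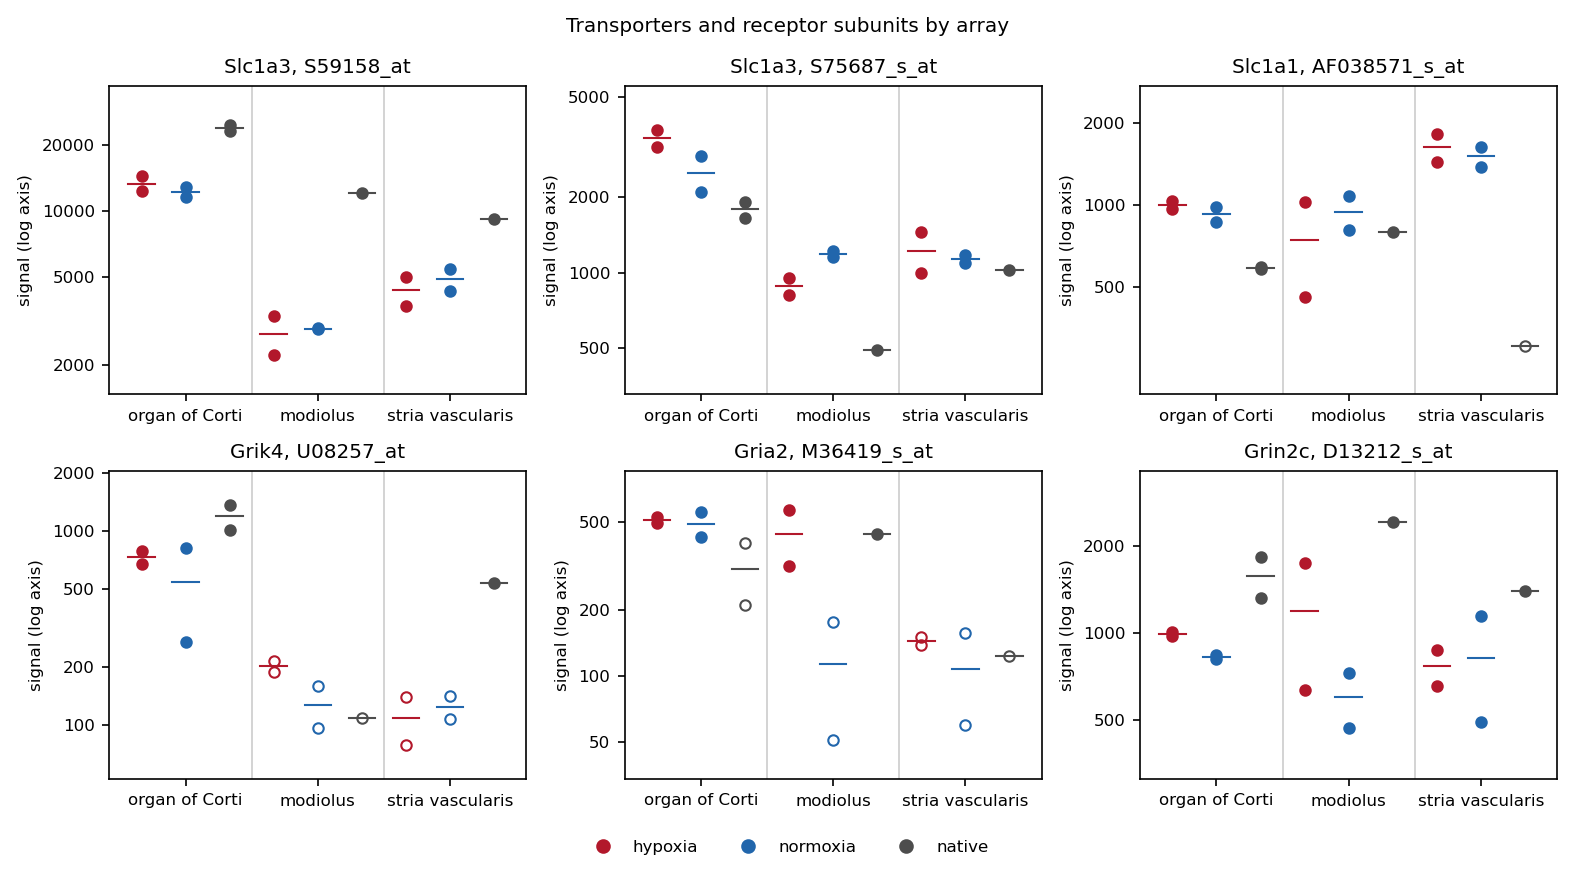
Signal by array, on a log axis, of 2 Slc1a3 probe sets and 1 each of Slc1a1, Grik4, Gria2 and Grin2c, for hypoxia, normoxia and native tissue in 3 regions; open points are groups not above background and bars are group means. The Slc1a3 probe sets differ in direction between culture and native tissue but both stand highest in the organ of Corti, and Grik4 is above background in the organ of Corti and in native stria vascularis only.

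The reference sequence around the start is shown for Glul and Slc1a3, the genes with the smallest adjusted p in culture, and for Grik4, which was above background in few groups, from 250 bases before to 50 bases after the start of the gene, 5′ to 3′, from RefSeq on the rat build GRCr8. Glul lies on the plus strand at chr13:68519250-68519549 and Slc1a3 on the minus strand at chr2:59557759-59558058. Grik4 lies on the minus strand at chr8:52102014-52102313. Capitals mark a match to one of 6 motifs on either strand.
Glul: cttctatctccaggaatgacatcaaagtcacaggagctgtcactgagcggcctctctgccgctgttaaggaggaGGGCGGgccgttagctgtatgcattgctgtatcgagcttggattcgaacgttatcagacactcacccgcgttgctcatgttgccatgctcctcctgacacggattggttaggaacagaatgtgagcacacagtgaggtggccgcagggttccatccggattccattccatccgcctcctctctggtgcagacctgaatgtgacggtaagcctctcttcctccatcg
Slc1a3: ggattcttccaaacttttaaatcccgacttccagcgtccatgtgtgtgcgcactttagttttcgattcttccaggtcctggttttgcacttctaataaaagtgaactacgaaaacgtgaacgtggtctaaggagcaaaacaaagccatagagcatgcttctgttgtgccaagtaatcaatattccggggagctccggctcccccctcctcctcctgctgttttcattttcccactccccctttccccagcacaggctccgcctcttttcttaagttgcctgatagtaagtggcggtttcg
Grik4: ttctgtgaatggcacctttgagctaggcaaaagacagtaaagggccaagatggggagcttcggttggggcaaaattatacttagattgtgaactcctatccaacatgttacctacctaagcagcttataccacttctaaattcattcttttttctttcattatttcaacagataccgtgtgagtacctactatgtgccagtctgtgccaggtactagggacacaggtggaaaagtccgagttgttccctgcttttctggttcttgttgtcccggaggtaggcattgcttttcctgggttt
The motifs, searched on both strands, were the AP-1 element TGANTCA, the GC box GGGCGG, the cAMP response element TGACGTCA, the glucocorticoid half-site AGAACA, the TATA box TATAAA and the E box CACGTG. Glul held 1 GC box, and the windows of Slc1a3 and Grik4 held none of the 6 strings. Sequences were found for 18 of the 29 genes. The GC box was in 7 of these 18 (38.9%) and in 33.1% of 33469 rat promoter windows, the glucocorticoid half-site in 2 of 18 (11.1%) against 20.7%, and the E box in 1 of 18 against 6.4%. The AP-1 element, the cAMP response element and the TATA box were in 0 of 18, against 7.3%, 1.8% and 14.2%. A match describes the letters of a window and is no evidence of binding.

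Among the NMDA receptor subunits 4 of 14 probe sets fell in culture and none rose, where 18.7% of all probe sets fell and 13.3% rose. Grin2c (D13212_s_at), a subunit of receptors with slow gating and weak magnesium block, read 842 and 814 in normoxic organ of Corti against 1824 and 1320.4 in native. It read 471 and 728 in normoxic against 2413 in native modiolus, and 495 and 1148 in normoxic against 1398 in native stria vascularis. Every normoxic array lay below the native arrays of its region, and the averaged difference was -1.26 ± 0.33 (adjusted p = 0.0107). In modiolus alone it was -2.01 ± 0.61 (adjusted p = 0.0342), a call lost without normoxic modiolus replicate 1. Probe set U08259_r_at of Grin2c did not pass in culture. It read 745.5 and 644 in normoxic against 607 in native modiolus, where it stood higher in culture. In organ of Corti it read 740 and 114 in normoxic against 647 and 199 in native tissue. In stria vascularis it read 340 and 107 against 414, with neither group above background.

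Grin2b (U11419_at), the subunit that prevails early in brain development, read 1591 and 1383 in normoxic against 2709 and 2119 in native organ of Corti, 2367 and 1651 in normoxic against 2864 in native modiolus and 1654 and 1465 in normoxic against 2292 in native stria vascularis. All normoxic arrays lay below the native ones of their region, with an averaged difference of -0.59 ± 0.17 (adjusted p = 0.015), and the call was lost under quantile normalization (adjusted p = 0.0769). Grin2d (U08260_at) fell, with a difference of -0.66 (SE 0.23, adjusted p = 0.0453), a call lost without any 1 of 8 arrays of 14 (0.0524 to 0.0963), and D13213_s_at of the same gene did not pass (-0.46 ± 0.23, adjusted p = 0.162).

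Grin1, the subunit that every NMDA receptor needs, gave discordant values. The brightest probe set, S39221_g_at, read 1258 and 984 in normoxic against 476 and 840.4 in native organ of Corti, 1312 and 1223 in normoxic against 626 in native modiolus and 1283 and 1176 in normoxic against 1106 in native stria vascularis. It stood higher in culture in each region but did not pass (0.65 ± 0.28, adjusted p = 0.0939). S39221_at read 74.1 and 119 in normoxic against 162 and 649 in native organ of Corti, 143 and 124 in normoxic against 319.8 in native modiolus and 94.3 and 217 in normoxic against 503 in native stria vascularis. No normoxic group was above background there, the averaged difference was -1.50 ± 0.46 (adjusted p = 0.0253), and no fold is given, since with these groups raised to their background the direction turned. It was lost without native organ of Corti replicate 2 (0.0604), normoxic organ of Corti replicate 1 (0.0559) or normoxic stria vascularis replicate 1 (0.0660). Grin2a (AF001423_at) and Grin3a (AF061945_at) did not pass in culture, at 0.16 ± 0.35 and -0.95 ± 0.41.

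Of the 9 probe sets of metabotropic receptors 1 fell. Grm4 (M90518_at), a presynaptic receptor that lowers cyclic AMP, read 1679 and 1325 in normoxic against 3697 and 3188 in native organ of Corti, 468 and 1839.7 in normoxic against 1829.9 in native modiolus and 1301 and 1412 in normoxic against 2401 in native stria vascularis. Normoxic and native signals overlapped in modiolus and lay apart in the other regions. The averaged difference was -0.99 ± 0.31 (adjusted p = 0.027), and it was lost without native organ of Corti replicate 1 (0.0635), normoxic organ of Corti replicate 2 (0.0613) or normoxic stria vascularis replicate 1 (0.0567). The other Grm values ran from -1.11 for Grm3 to 1.06 for Grm2, and both genes were not above background in most groups.

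No AMPA receptor subunit passed in culture. Gria1 (S56679_s_at) read 627 and 399.8 in normoxic and 633 and 896 in native organ of Corti, 857 and 750.0 in normoxic and 639.5 in native modiolus, and 659 and 664 in normoxic and 787 in native stria vascularis. Its averaged difference was -0.17 ± 0.26 (95% confidence interval -0.74 to 0.41, adjusted p = 0.684). Gria2 (M36419_s_at), the subunit that makes AMPA receptors impermeable to calcium, read 554 and 429 in normoxic and 211 and 402 in native organ of Corti, 177 and 51.2 in normoxic and 443 in native modiolus, and 156 and 60.1 in normoxic and 123 in native stria vascularis. It stood higher in normoxic organ of Corti and lower in normoxic modiolus, and the averaged difference did not pass (-0.53 ± 0.43, adjusted p = 0.401). Of these groups only normoxic organ of Corti and native modiolus were above background. Gria3 (X54656_at) read 109 and 212 in normoxic and 41.3 and 42.8 in native organ of Corti, 48.2 and 355 in normoxic and 130.0 in native modiolus, and 44.2 and 247 in normoxic and 337 in native stria vascularis, and none of these groups was above background. Gria4 (M36421_s_at) read 597 and 337 in normoxic and 418 and 446 in native organ of Corti, 424 and 537 in normoxic and 364 in native modiolus, and 483 and 393 in normoxic and 392 in native stria vascularis. Its averaged difference was 0.19 ± 0.33 (adjusted p = 0.706), and its native stria vascularis was not above background.

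Among kainate receptors, Grik2 (Z11548_at) fell in organ of Corti alone (-2.38 ± 0.68, adjusted p = 0.0291), with 31.3 and 96.5 in normoxia against 346 and 382 in native tissue. Neither group was above background, so no fold is given, and the fitted value was -1.76 without normoxic organ of Corti replicate 1 and -3.01 without replicate 2. The call was lost without normoxic organ of Corti replicate 1 (adjusted p = 0.216), native replicate 1 (0.116) or native replicate 2 (0.130). Grik5 (Z11581_at), which needs another subunit to form a channel, differed by -0.44 ± 0.27 on average (adjusted p = 0.241), Grik3 (AF027331_at) by -0.49 ± 0.53 and the delta receptor gene Grid1 (U08255_at) by -1.04 ± 0.44.

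**Figure D4:**
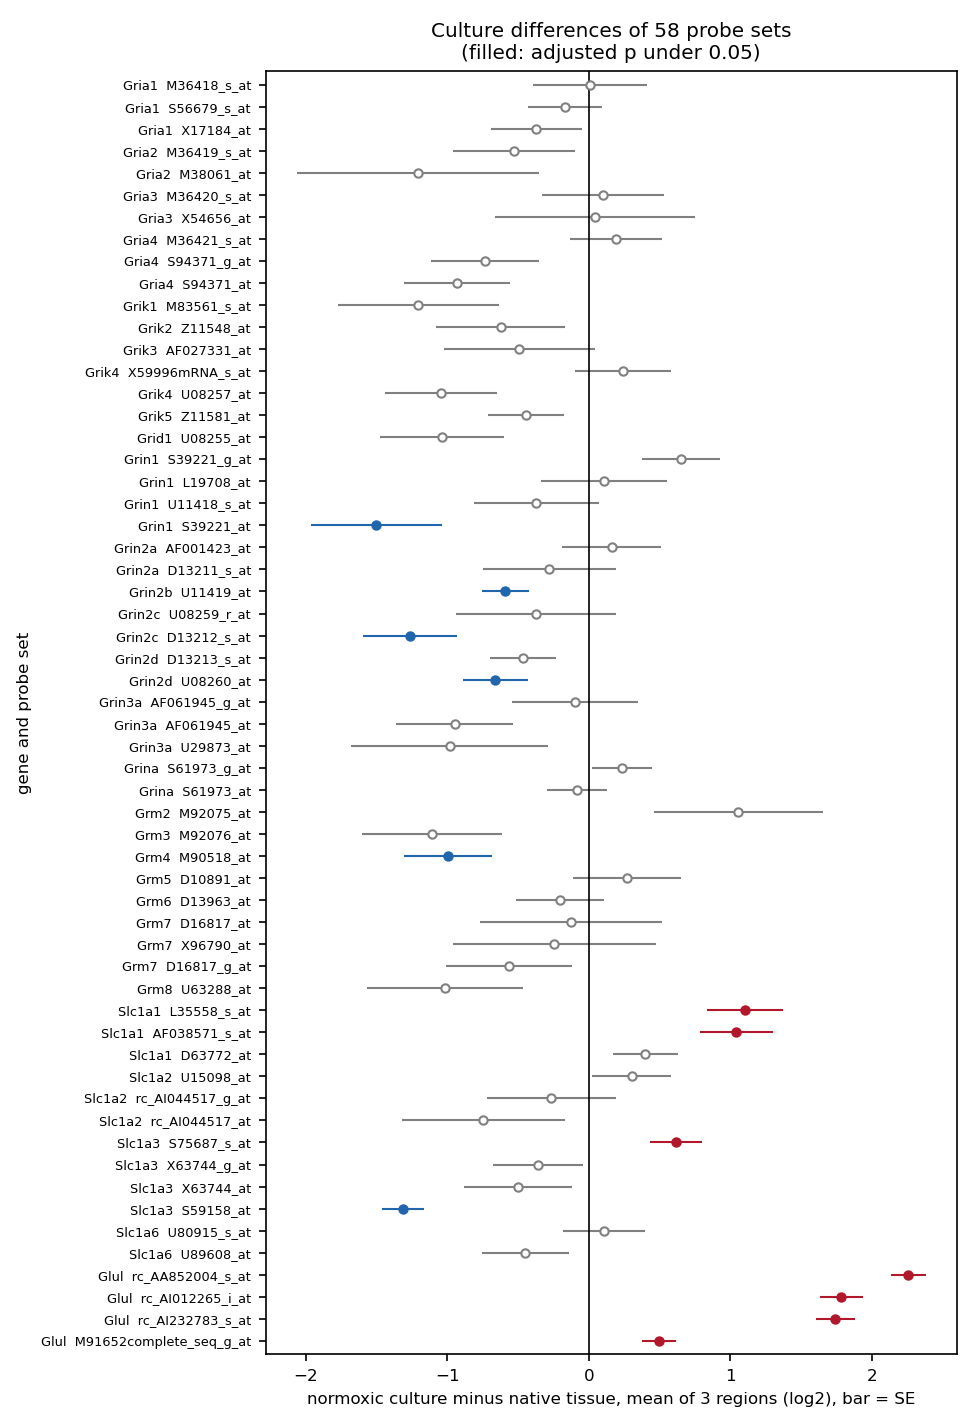
Log2 difference between normoxic culture and native tissue, averaged over 3 regions, with its standard error, for all 58 probe sets grouped by gene family. Filled red points passed as higher and filled blue points as lower in culture. All 4 Glul probe sets lie to the right of 0, Slc1a3 has 1 filled point on each side, and the filled Grin and Grm points lie to the left.

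Of 44 other genes of glutamate signalling and metabolism that were listed, 16 were on the array. In culture, averaged over regions, none of the 16 rose and 7 fell, with a median log2 difference of -0.46. Over all 1263 probe sets 13.3% were higher and 18.7% lower, and the median was -0.14. Among the 7 were Camk2b (-0.86 ± 0.16, adjusted p = 0.0013) and Camk2d (-0.48 ± 0.12, adjusted p = 0.010), subunits of the calmodulin kinase of the synapse. The postsynaptic scaffold Dlg4 differed by -0.46 ± 0.14 (adjusted p = 0.021) and the AMPA receptor scaffold Grip2 by -0.53 ± 0.19 (0.047). Glud1, the mitochondrial enzyme that deaminates glutamate, did not pass (-0.14 ± 0.11, adjusted p = 0.41). Averaged over regions, 6 of the 9 neuron markers fell and none rose, and 5 of the 6 glial markers fell and none rose, against the same shares. Single regions held exceptions. In modiolus Gap43 differed by 0.97 and Ngfr by 0.90, where the medians of the neuron and glial lists were -2.40 and -1.29. In stria vascularis Eno2 differed by 1.10 and Sncg by 3.13, where the median of the neuron list was -0.585.

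Hypoxic explants were then set against normoxic ones, to see what the period of low oxygen left behind 16 h later. None of the 58 probe sets passed when averaged over regions, against 0.158% of all 1263, and the smallest adjusted p among them was 0.52 in limma, with 4 at an unadjusted p under 0.05. None passed in organ of Corti (0% of all, 1 unadjusted), modiolus (0.0792%, 5 unadjusted) or stria vascularis (0.238%, 1 unadjusted). None had a hypoxia difference that varied between regions (0% of all, 1 unadjusted). The median log2 difference was 0.14 over the 58 and 0.05 over all probe sets. A p that misses the threshold does not show that values did not differ, so intervals are given.

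The brightest probe set of Glul read 41784 and 43416 in hypoxic against 49239.9 and 44934 in normoxic organ of Corti, 30418 and 47902 in hypoxic against 44316 and 54390.0 in normoxic modiolus and 84543 and 74629 in hypoxic against 68916 and 72129.7 in normoxic stria vascularis. Hypoxic arrays stood lower in organ of Corti and higher in stria vascularis, and in modiolus the groups overlapped. The averaged log2 difference was -0.11 ± 0.12 (95% confidence interval -0.37 to 0.15, adjusted p = 0.943) and, within scan sessions 2 and 3, -0.16 and -0.06. Slc1a3 (S59158_at) read 14337 and 12283 in hypoxic against 12805 and 11528 in normoxic organ of Corti, 3339 and 2205 in hypoxic against 2932 and 2894 in normoxic modiolus and 3710.4 and 5007 in hypoxic against 4344 and 5419 in normoxic stria vascularis. Groups overlapped in every region, and the difference was -0.05 ± 0.13 (interval -0.33 to 0.23), with 0.04 and -0.14 within the sessions. Probe set S75687_s_at of Slc1a3 read 3156 and 3672 in hypoxic against 2091 and 2901 in normoxic organ of Corti. In modiolus it read 815 and 952 against 1149 and 1215. Its hypoxic arrays thus lay above normoxia in organ of Corti, below it in modiolus and overlapped in stria vascularis. It passed in no hypoxia comparison.

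Slc1a1 (D63772_at) read 1475 and 1337 in hypoxic organ of Corti, 1506 and 1667 in hypoxic modiolus and 2655 and 1444 in hypoxic stria vascularis, a difference from normoxia of 0.13 ± 0.20 (interval -0.30 to 0.57). Slc1a2 (U15098_at) read 547 and 639 in hypoxic organ of Corti, 461 and 348 in hypoxic modiolus and 540.4 and 591 in hypoxic stria vascularis, a difference of -0.27 ± 0.24 (interval -0.80 to 0.25). Hypoxic and normoxic arrays of both transporters overlapped in organ of Corti. In modiolus both hypoxic arrays lay above the normoxic ones for Slc1a1 and below them for Slc1a2, and in stria vascularis they overlapped for Slc1a1 and lay below for Slc1a2. Grin1 (S39221_g_at) read 1074 and 1167 in hypoxic organ of Corti, 1789 and 1064 in hypoxic modiolus and 1720.5 and 812 in hypoxic stria vascularis, and its difference was 0.03 ± 0.24 (interval -0.49 to 0.54), with overlap in every region. Probe set S39221_at of Grin1 read 611 and 853 in hypoxic against 143 and 124 in normoxic modiolus. In organ of Corti it read 139 and 324 against 74.1 and 119, and in stria vascularis 63.1 and 47.7 against 94.3 and 217. So its hypoxic arrays lay above normoxia in modiolus and organ of Corti and below it in stria vascularis. No normoxic group was above background on this probe set, and it did not pass.

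Gria1 (S56679_s_at) read 651 and 632 in hypoxic organ of Corti, 1130.1 and 814 in hypoxic modiolus and 382 and 538 in hypoxic stria vascularis, and its difference was 0.02 ± 0.23 (interval -0.47 to 0.52). Hypoxic arrays lay above the normoxic ones in organ of Corti, overlapped with them in modiolus and lay below them in stria vascularis. Gria2 (M36419_s_at) read 525 and 495 in hypoxic organ of Corti, 570.3 and 316 in hypoxic modiolus and 151 and 138 in hypoxic stria vascularis. Its difference was 0.83 ± 0.38 (interval 0.02 to 1.65, adjusted p = 0.641), of which modiolus gave 1.96 ± 0.65 (adjusted p = 0.454), where the hypoxic arrays lay above the normoxic ones. Normoxic modiolus was not above background on this probe set, with backgrounds of 706 and 493 on its arrays, so no fold is given. Gria3 (X54656_at) read 104 and 516 in hypoxic organ of Corti, 85.6 and 129 in hypoxic modiolus and 43.7 and 316 in hypoxic stria vascularis, and its hypoxic modiolus was not above background. Gria4 (M36421_s_at) read 786 and 414 in hypoxic organ of Corti, 682 and 1080.4 in hypoxic modiolus and 352 and 471 in hypoxic stria vascularis, a difference of 0.36 ± 0.28 (interval -0.26 to 0.97), and lay above normoxia without overlap in modiolus alone.

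The 3 smallest unadjusted p values for hypoxia, none of which passed, belonged to another Gria4 probe set, Grm8 and Grm7. Gria4 (S94371_g_at) read 423 and 726 in hypoxic against 428 and 323 in normoxic organ of Corti, 487 and 1359 in hypoxic against 479 and 246 in normoxic modiolus and 328 and 541 in hypoxic against 239.8 and 233 in normoxic stria vascularis, a difference of 0.85 ± 0.33 (adjusted p = 0.522). Within scan sessions 2 and 3 that difference was 0.14 and 1.56, so it was larger in the second repeat. Grm8 (U63288_at), a presynaptic receptor, read 418 and 168 in hypoxic against 385 and 31.8 in normoxic organ of Corti, 321 and 381 in hypoxic against 78.1 and 51.7 in normoxic modiolus and 264 and 206 in hypoxic against 168 and 215 in normoxic stria vascularis, and none of these groups was above background. Its difference was 1.17 ± 0.48 (adjusted p = 0.596) and, within sessions 2 and 3, 0.85 and 1.48. Grm7 (D16817_at), a presynaptic receptor of low affinity, read 1115 and 93 in hypoxic against 521 and 528 in normoxic organ of Corti, 146 and 458 in hypoxic against 719 and 713 in normoxic modiolus and 382 and 72.5 in hypoxic against 612 and 625 in normoxic stria vascularis, a difference of -1.26 ± 0.56 (adjusted p = 0.635), with -0.59 and -1.93 within sessions 2 and 3. In hypoxic organ of Corti the 2 arrays of Grm7 lay on both sides of the normoxic ones.

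**Figure D5:**
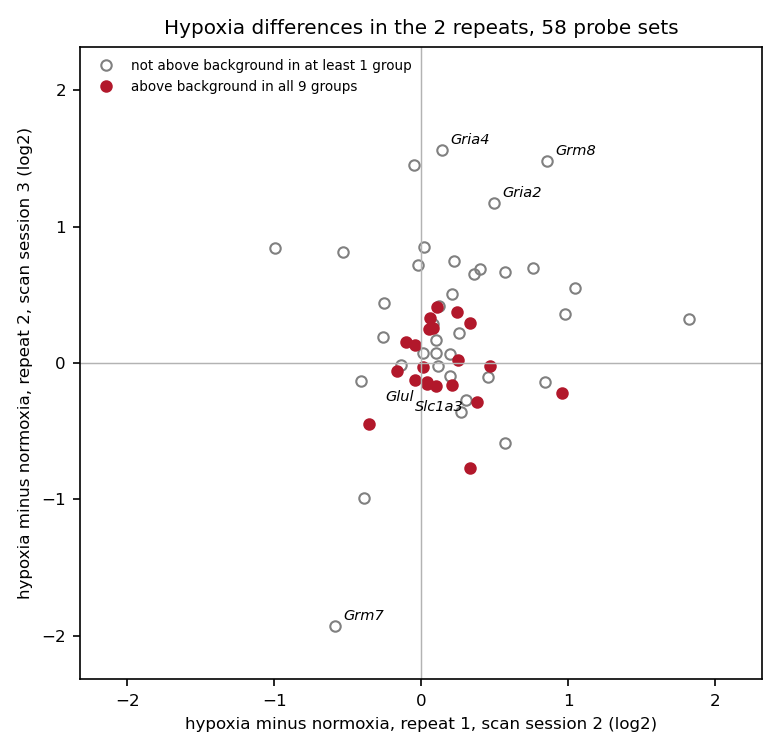
Log2 difference between hypoxia and normoxia, averaged over 3 regions, in the first repeat (scan session 2, horizontal) and the second repeat (scan session 3, vertical), for 58 probe sets. Filled points were above background in all 9 groups. The sign was the same in both repeats for 34 of 58, and for 10 of the 21 filled points, which lie close to 0.

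Both repeats had the same sign of the hypoxia difference for 34 of the 58 probe sets, and for 10 of the 21 that were above background in every group. Among those 10 the smaller of the 2 differences reached 0.35 at most. The 16 measured partner genes had 0 passing for hypoxia and a median of 0.04.

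The regions were compared as the mean over hypoxia, normoxia and native tissue. Slc1a3 and Grik4 were higher in organ of Corti than in both other regions, and Glul was highest in stria vascularis. Between organ of Corti and modiolus 6 of 58 probe sets passed, 4 higher and 2 lower in organ of Corti, against 23.9% of all 1263 (11.4% higher and 12.5% lower). Between organ of Corti and stria vascularis 8 passed, 5 higher and 3 lower, against 17.2% (11.2% and 5.94%). Between modiolus and stria vascularis 5 passed, 1 higher and 4 lower in modiolus, against 25.4% (16.7% and 8.71%). The median of all probe sets moved with the scaling: for organ of Corti minus stria vascularis it was 0.11 as deposited and -0.09 with quantile normalization, and for modiolus minus stria vascularis 0.34 and 0.04. The directions of the probe sets named next were checked against both, but not all calls held. Those of Grin3a (AF061945_g_at), Grina and Grik2 were lost with quantile normalization (adjusted p = 0.111, 0.0736 and 0.219). They were also lost on cultured arrays alone (0.176, 0.177 and 0.225).

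For Slc1a3 the cultured arrays of S59158_at read 14337 and 12283 in hypoxic organ of Corti, 3339 and 2205 in hypoxic modiolus and 3710.4 and 5007 in hypoxic stria vascularis, and the normoxic and native values are those given above. All organ of Corti arrays exceeded those of modiolus and stria vascularis in the same condition. The log2 difference was 1.77 ± 0.14 from modiolus (adjusted p = 1.5e-06) and 1.44 ± 0.14 from stria vascularis (adjusted p = 1.1e-05). Within scan sessions 2 and 3 the difference from modiolus was 2.11 and 2.23, and on native arrays alone it was 0.98 (adjusted p = 0.058). Probe set S75687_s_at, opposite in culture, ran the same way between regions, with 1.60 ± 0.17 from modiolus (adjusted p = 3.0e-05; 1.39 and 1.59 within sessions 2 and 3) and 1.13 ± 0.17 from stria vascularis (adjusted p = 0.00045), which on native arrays alone was 0.79 (adjusted p = 0.256). X63744_g_at gave 1.82 ± 0.30 from modiolus (adjusted p = 0.00062, at least 2.73-fold) and 1.33 ± 0.30 from stria vascularis (adjusted p = 0.0065), and on native arrays alone 1.25 (0.334) and 1.34 (0.256), neither of which passed. The remaining probe set, X63744_at, did not pass, at -0.23 ± 0.36 from modiolus.

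Grik4 (U08257_at), a kainate receptor subunit of high affinity, read 678 and 788 in hypoxic, 821 and 268 in normoxic and 1366 and 1017 in native organ of Corti. It read 188 and 214 in hypoxic, 158 and 96 in normoxic and 109 in native modiolus. It read 139 and 79 in hypoxic, 142 and 107 in normoxic and 542 in native stria vascularis. Modiolus and cultured stria vascularis were not above background, and native stria vascularis was. The difference was 2.28 ± 0.37 from modiolus (adjusted p = 0.00059, at least 1.58-fold) and 1.84 ± 0.37 from stria vascularis (adjusted p = 0.003, at least 1.63-fold). Within sessions 2 and 3 these were 2.02 and 1.57 and 2.29 and 2.14. On native arrays alone the difference from stria vascularis was 1.10 and did not pass (adjusted p = 0.603).

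Gria2 (M36419_s_at) was higher in organ of Corti than in stria vascularis (1.66 ± 0.41, adjusted p = 0.0108; 1.71 and 2.14 within sessions 2 and 3). No stria vascularis group and no native organ of Corti array was above background, so no fold is given, and on native arrays alone the difference was 1.15 (adjusted p = 0.628). Grin2a (AF001423_at), the subunit that gains ground with synaptic maturation in the brain, read 1026 and 368 in hypoxic, 348 and 994 in normoxic and 1347 and 1027 in native organ of Corti. In modiolus it read 2142 and 1765 in hypoxic, 2652 and 1803 in normoxic and 1168 in native tissue. It was lower in organ of Corti (log2 difference -1.16 ± 0.33, adjusted p = 0.0219; -1.96 and -1.53 within sessions 2 and 3), and on native arrays alone the difference was 0.01. The call was lost without native organ of Corti replicate 2 (0.0591), normoxic modiolus replicate 1 (0.0537) or hypoxic organ of Corti replicate 2 (0.0506). A Grin3a probe set, AF061945_g_at, was lower in organ of Corti than in modiolus (-1.25 ± 0.42, adjusted p = 0.0468; -1.68 and -0.20 within sessions 2 and 3), a call lost on native arrays alone (-1.87, 0.283) and without any 1 of 12 arrays of 14 (0.0520 to 0.111). Native organ of Corti and normoxic modiolus were not above background on this probe set, so no fold is given. The brightest Grin3a probe set, AF061945_at, did not pass in this comparison.

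Glul ran the other way. Its brightest probe set was lower in organ of Corti than in stria vascularis (log2 difference -0.98 ± 0.13, adjusted p = 0.00012) and lower in modiolus than in stria vascularis (log2 difference -0.89 ± 0.14, adjusted p = 0.00042). Within sessions 2 and 3 these were -0.75 and -0.73 and -1.06 and -0.52. In every condition its stria vascularis arrays exceeded those of both other regions. Probe set rc_AA852004_s_at gave -1.27 ± 0.12 and -1.27 ± 0.12, and M91652complete_seq_g_at -0.63 ± 0.11 and -0.73 ± 0.12, of which the second did not pass on native arrays alone (-0.88, adjusted p = 0.0540). The fourth, rc_AI012265_i_at, did not pass, at -0.26 ± 0.14 and 0.09 ± 0.15, and its native stria vascularis array was its lowest. No Glul probe set passed between organ of Corti and modiolus. The brightest gave -0.09 ± 0.13 (adjusted p = 0.64), and rc_AI012265_i_at lay farthest from 0, at -0.36 ± 0.14 (adjusted p = 0.0857).

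A further 2 members passed between modiolus and stria vascularis. Grina (S61973_at) was lower in modiolus (log2 difference -0.73 ± 0.21, adjusted p = 0.0236; -0.30 and -0.56 within sessions 2 and 3), a call lost without normoxic modiolus replicate 1 (0.0572), normoxic stria vascularis replicate 2 (0.0557), hypoxic modiolus replicate 1 (0.0577) or hypoxic stria vascularis replicate 2 (0.0600), and on native arrays alone (-1.34, 0.0951). Grik2 (Z11548_at) was higher in modiolus by 1.44 ± 0.45 (adjusted p = 0.0367; 0.33 and 1.30 within sessions 2 and 3), with native modiolus its only group above background, and the call was lost without any 1 of 7 arrays of 14 (0.0508 to 0.0873) and on native arrays alone (2.68, 0.121). Among the partner genes Nptx2, a pentraxin that clusters AMPA receptors, was higher in organ of Corti by 1.80 ± 0.28 against modiolus (adjusted p = 0.00043) and by 2.64 ± 0.28 against stria vascularis (adjusted p = 2.2e-05). Of the 9 neuron markers 9 were higher in organ of Corti than in stria vascularis (11.2% of all probe sets), and 6 higher and 1 lower in organ of Corti than in modiolus (11.4% and 12.5%), and their part in the region differences of the receptor genes was not tested.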

How the data were processed

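RNA was hybridised to Affymetrix Rat Neurobiology U34 arrays, 1 array per pool. The deposited table holds a linear intensity for each of 1322 probe sets, scaled by the authors to one target per array, since the 2% trimmed mean is 2500 on all 16 arrays. The summary software is not given in the sources used here. The other deposited files are run records of the fluidics and scanner, which hold no expression values and gave chip type and scan session.

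Values were analysed as log2(value + 16), so differences of dim probe sets are understated. The 59 control probe sets were left out, and 1263 remained without a filter on dim values, of which 1137 carried 1 gene symbol, 8 several and 118 none. A linear model with 1 mean for each of 9 groups was fitted with a variance trend by limma, version 3.58.1, under R 4.3.3, with statmod 1.5.0. It left 7 residual degrees of freedom and took the single native arrays of modiolus and stria vascularis to vary like the rest. Two-sided p-values were adjusted by Benjamini-Hochberg over all 1263 and judged at 0.05, and errors are standard errors of the model. At-least folds raise groups not above background to the 95th percentile of the foreign controls of each array. Where the labels name no separate cultures, p-values measure the spread between pools, which may be technical in part, and the number of arrays limits the precision.

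Named in full were members that passed in a comparison averaged over regions or conditions or in a test of differences between regions, the brightest probe set of the AMPA receptor genes, Grin1, Slc1a1, Slc1a2, Slc1a3 and Glul whatever their values, and the 3 smallest p values for hypoxia. Passing members of single regions are given too. Members and lists were chosen with earlier results of these data known. Of the marker lists, the one for macrophages and other leukocytes held 1 measured gene of 10, Itgam, which was not above background in any group, and the one for stria vascularis 4 of 10, of which 1 fell in culture averaged over regions and 0 passed for hypoxia. Within stria vascularis 3 of these 4 fell in culture and 0 rose, against 6.33% and 7.36% of all probe sets. The glial list had 1 gene higher and 3 lower in organ of Corti than in modiolus. The script for the model was tested on simulated data. Alternatives were pseudocounts of 1 and 64, quantile normalization, centring on the array median, leaving out dim probe sets, a model lacking the variance trend, the replicate block, blocks or terms for scan session, fits of fewer groups and leaving out each array in turn.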

Additional observations from a re-analysis of the deposited data

Results flagged for a closer look

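The culture rise of Glul on probe set rc_AA852004_s_at differed between regions by a moderated F test (limma, adjusted p = 0.0229). The log2 rise was 2.81 ± 0.18 (SE) in organ of Corti, 2.67 ± 0.23 in modiolus and 1.30 ± 0.23 in stria vascularis. Native stria vascularis, which had 1 array, read 8132 on this probe set, against 1747 in native modiolus and 1633 and 1807 in native organ of Corti. The other 3 Glul probe sets did not pass this test, and with no variance trend the adjusted p was 0.149.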

How the results depend on the processing

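Of 51 calls on named probe sets, 25 held under every alternative run, and 3 of 41 named values that did not pass did so under some alternative. The hypoxia counts stayed at 0 in every alternative. In culture 8 of the 29 genes, not 5, passed when any probe set of a gene counted. For culture in stria vascularis 3 probe sets, not 6, passed when only the compared groups were in the fit. On native arrays alone 2 of 58 passed for organ of Corti minus modiolus, where the main count was 6, then 4 for organ of Corti minus stria vascularis (main 8) and 2 for modiolus minus stria vascularis (main 5). For modiolus minus stria vascularis 10 passed with the replicate block, 9 with a random block for session and 11 with cultured arrays and session as a term. The test of culture differences between regions called 2 probe sets with quantile normalization and 0 with no variance trend, and 1 gene, not 0, when any probe set counted. Leaving out 1 array at a time gave 10 to 14 passing probe sets for culture (main 13), 4 to 7 in organ of Corti, 6 to 7 in modiolus, 4 to 6 in stria vascularis, 4 to 8 for organ of Corti minus modiolus, 8 to 10 for organ of Corti minus stria vascularis, 3 to 7 for modiolus minus stria vascularis, 0 to 1 for the test of culture differences between regions and 0 for hypoxia. Modiolus minus stria vascularis reached 3 without normoxic stria vascularis replicate 2. On native arrays alone Grin2a differed by 0.0102 in organ of Corti minus modiolus, where its main value was -1.16. The averaged culture call of Grm4 was also lost with quantile normalization (adjusted p = 0.0780), no variance trend (0.0509), session as a random block (0.0606) and only the compared groups (0.0558). The cause of these shifts was not tested. The repeat numbers of the labels were not used as pairs, since no label ties them to a shared litter or day and the residuals of same-numbered arrays correlated above 0.1 in 12 of 21 pairs of groups but not in all (r = -0.006 to 0.284, above 0 in 20), a hint from the data. For the cultures the numbers coincide with scan sessions, and the counts with session as a block or term stand above. The replicate block moved no other count of passing member probe sets by over 1.5 times.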
